A study of Mus musculus with 18 samples.

Results

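The genes examined here encode the proteins of the mitochondrial respiratory chain and of ATP synthase, measured in captured areas of the mouse thyroid. They were chosen by name: every gene probe of the array whose listed gene name began with Nduf followed by a, b, c, s or v, with Uqcr, with Cox4 to Cox8 or with Atp5, or was Sdha, Sdhb, Sdhc or Sdhd. The rule found 113 probes for 82 genes, of 27670 gene names on the array. For each gene the probe of highest mean intensity gave the value. Of the 82 genes, 79 had a Cy5 signal well above background on at least 3 arrays and were tested, while the other 3 were not well above background on any array. Those included Cox4i2, a subunit isoform best known from lung, and Cox8c, an isoform best known from testis. Among the 79 were 36 genes of complex I, 4 of complex II, 7 of complex III, 16 of complex IV and 16 of complex V, counted by name. The name rule also took in 3 genes that are not subunits: Ndufaf1, an assembly factor of complex I, Cox4nb, now named Emc8, and Atp5s, now named Dmac2l. These 3 stay in the values of the complexes to which their names assign them. The other 76 are counted here as subunits, including Cox7a2l, a factor of supercomplex assembly. Of the 82 genes, 69 were well above background on all 18 arrays.

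The respiratory chain carries electrons from NADH through complex I (NADH dehydrogenase) and from succinate through complex II (succinate dehydrogenase) to complex III (the cytochrome bc1 complex) and complex IV (cytochrome c oxidase), and complex V (ATP synthase) uses the resulting proton gradient to make ATP. The subunits listed here are encoded in the nucleus, and their genes are known to be expressed together in most tissues, with the factors NRF1, GABP and the estrogen-related receptors acting on many of their promoters. Cytochrome c oxidase also has tissue isoforms: Cox6a2, Cox7a1 and Cox8b replace Cox6a1, Cox7a2 and Cox8a in heart and skeletal muscle, and Cox7a1 and Cox8b are abundant in brown fat. Thyroid follicular cells, or thyrocytes, use mitochondrial ATP for iodide uptake and hormone synthesis, and C cells, which secrete calcitonin, lie mostly in the central part of each lobe.

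The study set out to follow the proliferation of thyroid cells after partial thyroidectomy, an operation that removes a portion of the gland. Each array was hybridised with amplified RNA of 1 laser-captured area in Cy5 and a common RNA in Cy3, from 4 groups: the central area of dissected thyroids (after surgery, n = 5), the central area of normal thyroids (no surgery, n = 5), the peripheral area of dissected thyroids (n = 5) and the peripheral area of normal thyroids (n = 3). All areas came from male C57BL/6 mice, and the labels give no age, no time after surgery and no link from an area to a mouse, so areas may share a mouse and p-values measure the spread between areas. A captured area holds several cell types, and fewer cells of a type cannot be told apart from less RNA per cell. The defining thyroid gene Tg, for thyroglobulin, had Cy5 intensities of 164772 to 440074. Of 12 thyrocyte markers 10 were measured, with no call in any comparison. Of 9 C cell markers 8 were measured. Their mean log2 ratio per array was 0.78 to 1.89 in normal central areas, against -2.02 to -1.23 in normal peripheral areas. In dissected thyroids it was -1.48 on dissected central 2 and 0.06 to 1.33 on the other 4 central arrays, against -2.95 to -2.58 in peripheral areas. Dissected central 2 therefore lay above every dissected peripheral array but within the range of the normal peripheral ones. In limma's moderated test with Benjamini-Hochberg adjustment over 14663 genes, all 8 markers were higher in the central area of dissected thyroids, and 6 to 8 when 1 array at a time was left out. In normal thyroids 6 were higher, and 0 to 7 when 1 array at a time was left out, with 0 without normal peripheral 2 and 1 without normal central 1 or normal central 3. The parathyroid gene Pth had a log2 ratio of 3.99 on normal central 3, against -5.17 to -1.80 on the other 17 arrays.

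The RNA labelled as reference went against its label. Per the labels it was a commercial mix of 10 tissues of Swiss Webster mice without thyroid, including liver, brain, heart, kidney, lung and testis. In Cy3, however, the thyroid gene Tg had intensities of 21185 to 161222 on the 18 arrays. By contrast, 12 genes typical of the labelled tissues, among them Alb of liver, Gfap of brain, Myh6 of heart, Umod of kidney, Sftpc of lung and Prm1 of testis, had Cy3 intensities of 91.3 to 179.8 and were each well above background on at most 5 of the 18 arrays. These marker genes were chosen after their values were seen. Cy5 and Cy3 intensities of an array correlated at 0.886 to 0.982 across probes, and the mean log2 ratio of 99.6% of all genes tested lay within 1 of 0. The ratios below are therefore used only to compare groups and not to compare thyroid with other tissues, and the cause of the mismatch was not tested.

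One array stood apart in the values of these genes. On normal peripheral 1 the log2 ratios of the 79 genes had an SD of 0.80, against 0.24 to 0.38 on the other 17 arrays, and 18 genes were beyond 1 from 0, against 0 to 3. Over all genes tested, 8.7% were beyond 1 on this array and 8.5% on dissected central 5, against 1.14% to 4.08% on the others. Normal peripheral 1 also had the smallest share of gene probes well above background, at 24.7%, against 28.1% to 44.0%. Medians, counts and named differences of the 79 genes against the normal peripheral group, which has 3 arrays, are given with and without it. The 18 arrays lay on 5 slides and were scanned on 2 days, each of which held arrays of all 4 groups, but scan day 1 held only 1 normal peripheral array. The median log2 ratio over the 79 genes ran from -0.16 to 0.14 on the 7 arrays of scan day 1 and from -0.29 to 0.04 on the 11 arrays of scan day 2.

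The probe letters show what the array read for the 2 members that recur below and for Ucp1, the uncoupling protein gene of brown fat that serves as a marker further on. Each probe has 60 bases, given as listed in the scanner files, in lower case throughout. The Ndufa3 probe lies at chr7:3242389-3242448 and the Ucp1 probe at chr8:81866808-81866867, both on the plus strand of mouse build mm7 per the files, and the files give no position for the Cox7a1 probe. The exons under the probes were not determined.
Ndufa3: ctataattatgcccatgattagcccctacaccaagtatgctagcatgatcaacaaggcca
Cox7a1: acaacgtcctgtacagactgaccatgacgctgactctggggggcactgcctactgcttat
Ucp1: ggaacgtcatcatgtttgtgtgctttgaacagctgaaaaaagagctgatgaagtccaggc

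Promoters are shown for 1 widely expressed subunit and for the 2 muscle and brown fat isoforms whose values differed most between areas. The windows run from 250 bases before to 50 bases after the first listed gene start and come from RefSeq on the assembly GRCm38.p6, 5′ to 3′ along the gene. Capitals mark matches, on either strand, to GCGCA and GCGC separated by any 1 base (named for NRF1), CCGGAAG (GABP), AAGGTCA (estrogen-related receptors) and ATGGCGGC (YY1). The Cox6a1 window lies at chr5:115348909-115349208 on the minus strand, the Cox7a1 window at chr7:30183921-30184220 on the plus strand and the Cox8b window at chr7:140900397-140900696 on the minus strand.
Cox6a1: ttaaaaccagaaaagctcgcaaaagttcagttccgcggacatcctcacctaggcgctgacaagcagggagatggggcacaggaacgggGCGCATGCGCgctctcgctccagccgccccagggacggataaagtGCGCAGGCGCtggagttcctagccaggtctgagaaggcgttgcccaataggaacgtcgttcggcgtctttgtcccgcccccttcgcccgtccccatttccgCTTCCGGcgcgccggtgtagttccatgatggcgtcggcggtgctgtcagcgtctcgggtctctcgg
Cox7a1: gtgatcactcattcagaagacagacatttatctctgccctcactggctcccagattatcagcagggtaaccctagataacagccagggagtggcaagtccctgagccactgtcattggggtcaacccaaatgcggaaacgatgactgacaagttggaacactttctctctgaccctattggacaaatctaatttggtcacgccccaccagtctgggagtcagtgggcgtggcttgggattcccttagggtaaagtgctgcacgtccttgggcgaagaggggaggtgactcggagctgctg
Cox8b: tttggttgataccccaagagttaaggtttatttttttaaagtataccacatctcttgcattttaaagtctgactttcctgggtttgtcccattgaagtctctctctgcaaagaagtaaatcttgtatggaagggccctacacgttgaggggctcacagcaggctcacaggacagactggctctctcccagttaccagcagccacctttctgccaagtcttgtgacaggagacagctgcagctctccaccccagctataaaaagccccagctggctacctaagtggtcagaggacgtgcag

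The Cox6a1 window held 2 matches to the NRF1 motif, beginning 162 and 117 bases before the start, and 1 to the GABP motif beginning 16 bases before it. The Cox7a1 and Cox8b windows held none of the 4 motifs. Cox6a1 was not typical of complex IV. Of its 12 promoters in the table, the NRF1 motif was in 1, that of Cox6a1, and the GABP motif in 3. The other motifs were in 0. Cox7a2, the widely expressed counterpart of Cox7a1, held no motif, and Cox8a, that of Cox8b, held the GABP motif. The printed windows therefore do not show a contrast between widely expressed subunits and tissue isoforms. Promoters of 65 of the 79 subunit genes, tested or not, were in the table. The NRF1 motif was in 16 of the 65 (24.6%), against 4.78% of all 27025 promoters, and the GABP motif in 15 (23.1%), against 9.12%. The estrogen-related receptor motif was in 8 (12.3%), against 4.66%, and the YY1 motif in 6 (9.23%), all of them of complex I, against 2.38%. A match describes the letters only.

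No respiratory chain gene passed the test in any comparison. In limma's moderated test at an adjusted p under 0.05, 0 of the 79 genes were called for dissected minus normal in the central area and 0 in the peripheral area, where 0% of all 14663 genes were called in each. For central minus peripheral, 0 of 79 were called in normal thyroids, where 0.28% of all genes were, and 0 of 79 in dissected thyroids, where 0.587% were. Those shares rest on 41 and 86 genes, and leaving out 1 array at a time the numbers ran from 1 without normal peripheral 2 to 76 without dissected central 2 in normal thyroids, and from 48 without dissected central 3 to 173 without dissected central 2 in dissected thyroids. None of the 79 was among them at any of these settings. The test of whether the change after surgery differed between the areas called 0 of 79 and 0% of all genes, and the F test among the 4 groups called 0 of 79, against 1.06% of all genes.

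**Figure D1:**
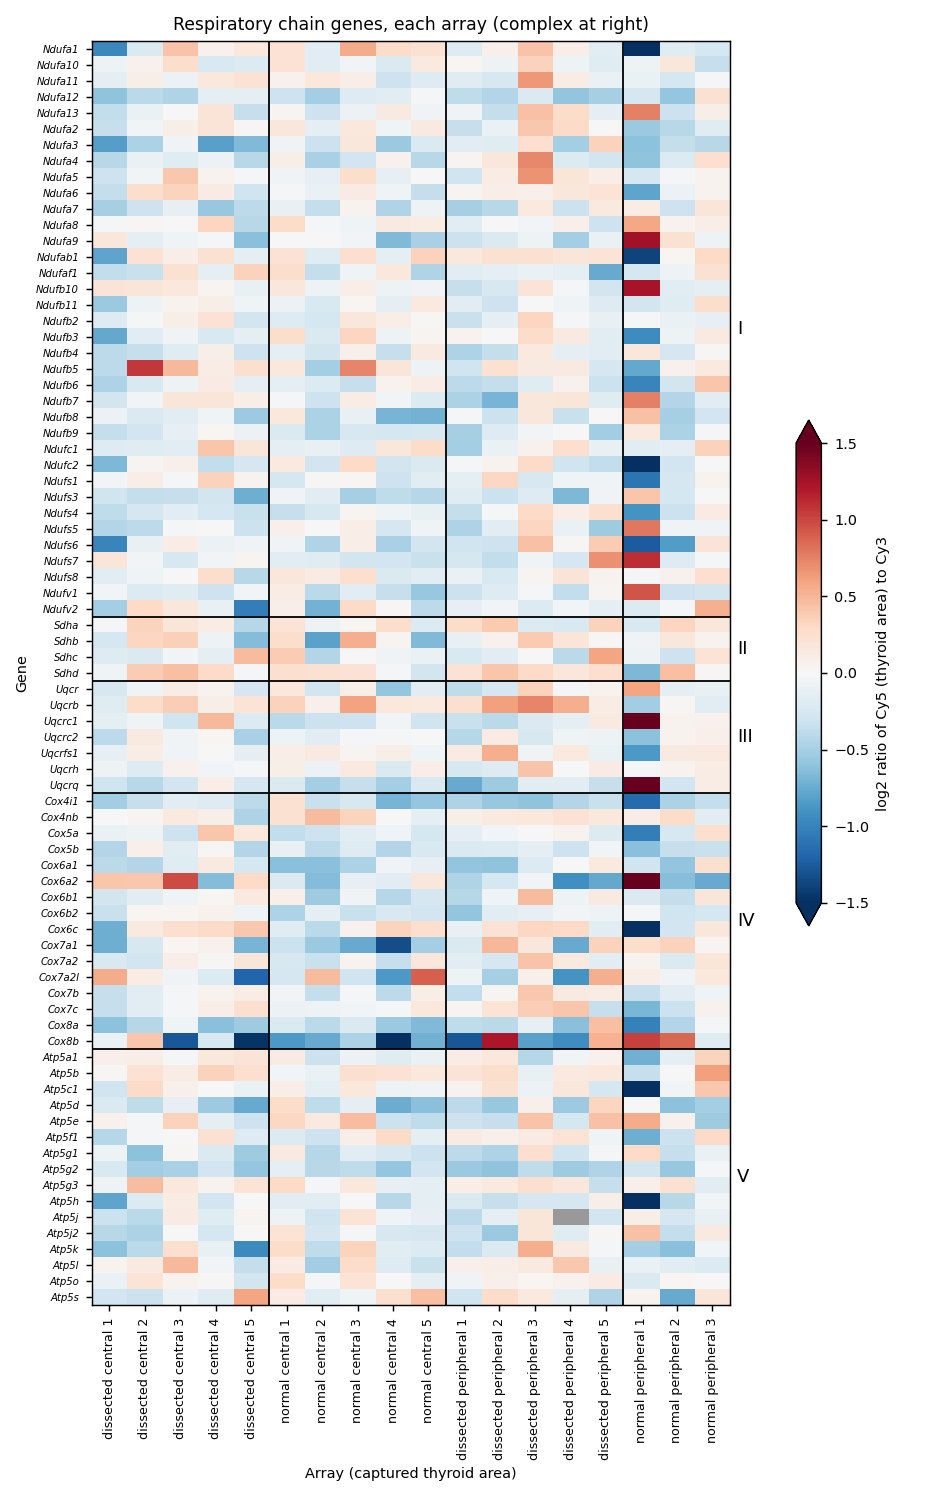
Log2 ratio of Cy5 (captured thyroid area) to Cy3 of the 79 tested genes (rows, ordered by complex) on each of the 18 arrays (columns, by group); grey marks the 1 missing value and colours are capped at 1.5 either way. Normal peripheral 1 shows 18 genes beyond 1, the other arrays 0 to 3.

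In the central area, the genes did not move as a group after surgery by more than the arrays varied. The median difference, dissected minus normal, was -0.01 on the log2 scale over the 79 genes, as it was over all genes tested, with 37 genes above 0 and 42 below. By complex it was -0.04 for complex I, 0.04 for complex II, -0.06 for complex III, 0.09 for complex IV and -0.06 for complex V. In complex IV 12 of 16 genes were above 0, and in complex V 12 of 16 were below. At an unadjusted p under 0.05, 0 of 79 genes passed, against 5.24% of all genes, and 0 of 79 had arrays that did not overlap between the groups, against 1% of all genes. The median over the 79 genes on each array was -0.29, -0.07, 0.01, 0.02 and -0.15 in dissected central areas, against 0.04, -0.27, 0.03, -0.16 and -0.15 in normal central areas. The ranges of these array medians overlapped almost wholly. In the arrays of scan day 1 the median difference was 0.10, and in those of scan day 2 it was -0.08. Without dissected central 2 it was -0.02, with 0 of 79 at an unadjusted p under 0.05, and without normal central 3 it was 0.01, again with 0 of 79.

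The smallest p in the central area belonged to Ndufa3, an accessory subunit of complex I. Its log2 ratios were -0.82, -0.47, -0.05, -0.81 and -0.66 in dissected central areas, against -0.05, -0.32, 0.17, -0.55 and -0.21 in normal central areas. The lowest arrays were dissected ones, but the groups overlapped. The difference was -0.37 (SE 0.19, limma adjusted p = 0.956). Cox6b2, the testis isoform of a cytochrome c oxidase subunit, had -0.33, 0.03, 0.03, 0.06 and -0.06 in dissected central areas, against -0.46, -0.13, -0.33, -0.23 and -0.29 in normal central areas. All but 1 of its dissected arrays were above all normal ones, and its difference was 0.23 (SE 0.12, limma adjusted p = 0.988). From Cy5 alone the Cox6b2 difference was 0.03. Its probe was dim, with Cy5 intensities of 106 to 353, and was well above background on 16 of the 18 arrays. Ndufb3, another accessory subunit of complex I, had -0.77, -0.17, -0.05, -0.22 and -0.15 in dissected central areas, against 0.26, -0.22, 0.32, -0.07 and 0.04 in normal central areas. Its groups overlapped, dissected central 1 was far below its group, and the difference was -0.34 (SE 0.19, limma adjusted p = 0.989).

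**Figure D2:**
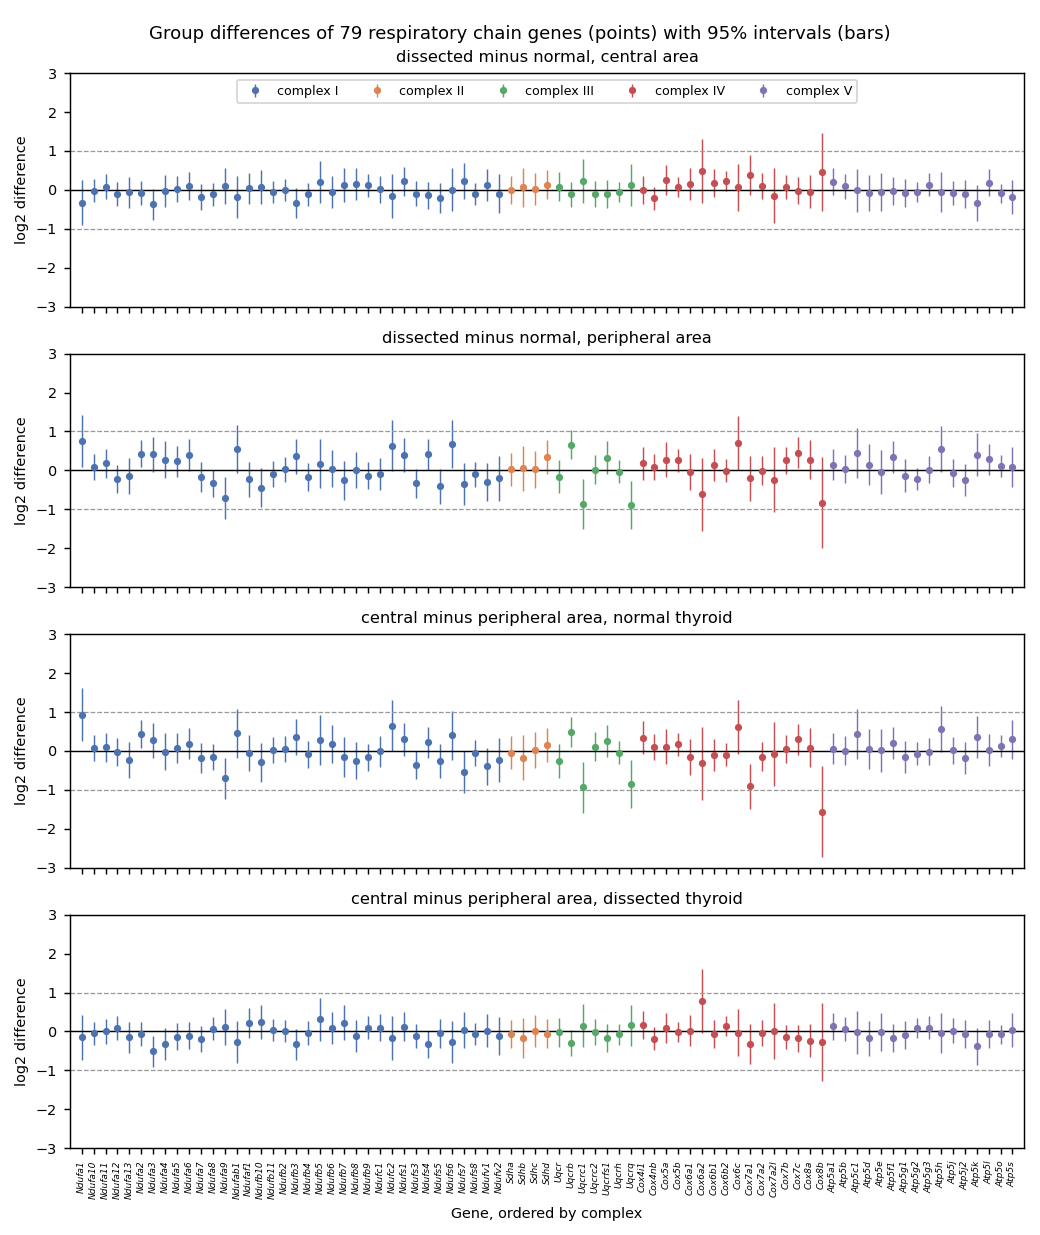
Difference of group means (log2, points) with its 95% interval from limma (bars) for each of the 79 genes, ordered by complex, in the 4 comparisons; dashed lines mark a 2-fold difference. In the central area after surgery 77 of 79 intervals lie within the dashed lines, and in the peripheral area, with 3 normal arrays, 65 of 79.

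The intervals state what these arrays could have missed. In the central area the 95% interval of the difference had a median half-width of 0.37, and it lay within 2-fold either way for 77 of the 79 genes and within 1.5-fold for 59. The 2 genes whose interval reached beyond 2-fold were the isoforms Cox6a2 and Cox8b. Among the nucleus-encoded subunits listed as core, Ndufs1, the largest subunit of complex I, had a difference of 0.22 with an interval of -0.15 to 0.59. Sdha, the flavoprotein of complex II, had -0.01 with an interval of -0.37 to 0.35. Cox4i1, a nucleus-encoded subunit of cytochrome c oxidase, had 0.00 with an interval of -0.36 to 0.36. Atp5b, the catalytic beta subunit of ATP synthase, had 0.09 with an interval of -0.22 to 0.41. Each of these intervals covered 0 and excluded a 2-fold change.

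In the peripheral area, dissected minus normal, the median difference was 0.03 over the 79 genes and 0.01 over all genes tested, with 45 genes above 0. By complex it was -0.04 for complex I, 0.04 for complex II, -0.03 for complex III, 0.11 for complex IV and 0.10 for complex V. Without normal peripheral 1 these medians were 0.05, 0.01, -0.06, 0.05 and 0.03 in the same order. At an unadjusted p under 0.05, 10 of 79 genes passed, 7 of them positive, against 8.34% of all genes. Without normal peripheral 1 the count was 1 of 79, Uqcrb, against 4.95% of all genes, and the median difference was 0.03. The count was 20 (25.3%) without normal peripheral 2, against 11.9% of all genes, and 25 (31.6%) without normal peripheral 3, against 11.6%. It was 6 (7.59%) without dissected peripheral 3, against 7.06%. The median difference was 0.005 in the arrays of scan day 1, which rests on 1 normal array, and 0.02 in those of scan day 2. The 95% interval lay within 2-fold for 65 of 79 genes and within 1.5-fold for 28, with a median half-width of 0.43, and without normal peripheral 1 it lay within 2-fold for 75 and within 1.5-fold for 46. Only 2 of 79 genes (2.53%) had groups that did not overlap, against 4.2% of all genes: Uqcrb and Cox5b, a nucleus-encoded subunit of cytochrome c oxidase, both higher on every dissected array. Without normal peripheral 1, leaving 2 normal arrays, the count was 5 of 79, against 9.13% of all genes.

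Uqcrb, a small subunit of complex III, had the smallest p of any member in this comparison and in the F test. Its log2 ratios were 0.24, 0.61, 0.73, 0.55 and 0.11 in dissected peripheral areas, against -0.52, 0.02 and -0.16 in normal peripheral areas. All 5 dissected arrays were above all 3 normal ones. The difference was 0.66 (SE 0.18, limma unadjusted p = 0.0017, adjusted p = 0.395). Without normal peripheral 1 it was 0.52 (limma adjusted p = 0.944). In the central area the same gene had -0.19, 0.28, 0.37, 0.09 and 0.21 in dissected thyroids, against 0.34, 0.07, 0.60, 0.16 and 0.15 in normal thyroids, which overlapped. The change after surgery differed between the areas by -0.78 (SE 0.24, limma adjusted p = 0.79), the central change minus the peripheral one, or by -0.63 without normal peripheral 1. The Uqcrb probe lies at chr13:64392762-64392821 of mm7.

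The next 2 genes by p in the peripheral area owed most of their size to normal peripheral 1. Uqcrq, another small subunit of complex III, had -0.76, -0.53, -0.16, -0.16 and -0.34 in dissected peripheral areas, against 1.64, -0.28 and 0.11 in normal peripheral areas. The groups overlapped, and the difference of -0.88 (SE 0.29, limma adjusted p = 0.524) was -0.30 without that array. Ndufa9, an accessory subunit of complex I, had -0.33, -0.21, -0.07, -0.51 and -0.10 in dissected peripheral areas, against 1.26, 0.23 and -0.07 in normal peripheral areas. Its groups overlapped, and its difference of -0.71 (SE 0.25, limma adjusted p = 0.529) was -0.32 without that array. A second probe of Uqcrq was not well above background on any array.

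**Figure D3:**
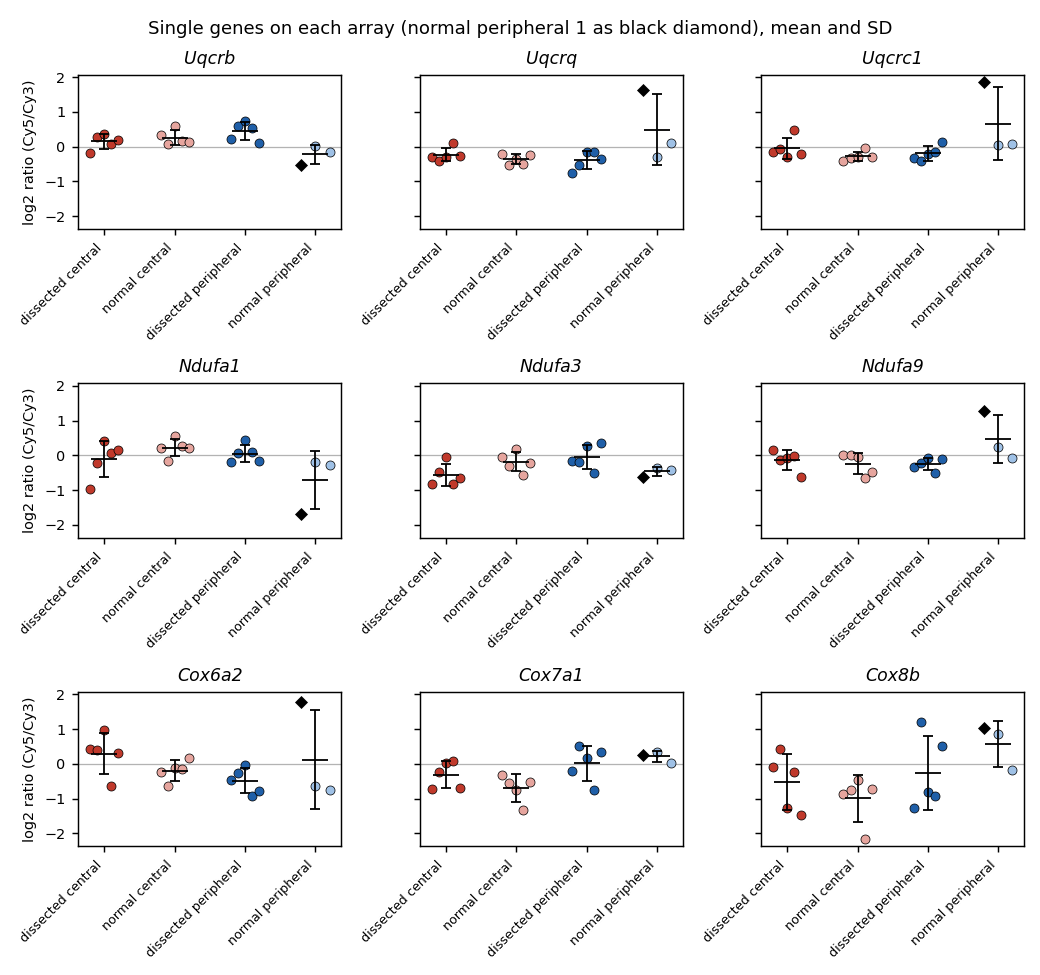
Log2 ratio of Cy5 to Cy3 of 9 genes on each array (points), with the group mean and SD (bars); the black diamond is normal peripheral 1. This array is the highest of its group for Uqcrq, Uqcrc1, Ndufa9, Cox6a2 and Cox8b and the lowest for Uqcrb, Ndufa1 and Ndufa3.

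Between the areas of normal thyroids, central minus peripheral, the median difference was 0.01 over the 79 genes and 0.01 over all genes tested, with 42 genes above 0. By complex it was -0.02 for complex I, -0.01 for complex II, -0.04 for complex III, -0.02 for complex IV and 0.04 for complex V. Without normal peripheral 1 these medians were -0.01, -0.18, -0.08, -0.05 and 0.03 in the same order. At an unadjusted p under 0.05, 9 of 79 genes passed, 3 of them positive, against 8.59% of all genes, and without normal peripheral 1 the count was 1 of 79, Cox7a1, against 5.02% of all genes, with a median difference of -0.02. It was 23 (29.1%) without normal peripheral 3, against 11.9% of all genes, and 8 without normal central 3, against 6.6%. The median difference was -0.11 in the arrays of scan day 1, which rests on 1 peripheral array, and 0.09 in those of scan day 2. Groups did not overlap for 6 of 79 genes (7.59%), against 4.86% of all genes: Ndufa1, Ndufa2 and Uqcrb were higher and Uqcrc1, Cox7a1 and Cox8b lower on every central array than on every peripheral one. Without normal peripheral 1 the count was 8 of 79, against 10.6% of all genes. The 95% interval lay within 2-fold for 65 of 79 genes, and for 73 without that array.

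Of the non-isoform genes among these, Uqcrc1, a core subunit of complex III, had -0.40, -0.32, -0.31, -0.04 and -0.30 in normal central areas, against 1.88, 0.06 and 0.06 in normal peripheral areas. The groups did not overlap, but normal peripheral 1 alone made most of the difference. It was -0.94 (SE 0.31, limma adjusted p = 0.353) with that array and -0.34 without it, and a second Uqcrc1 probe gave -0.49 with it. Ndufa1, an accessory subunit of complex I encoded on the X chromosome, had 0.21, -0.15, 0.56, 0.27 and 0.22 in normal central areas, against -1.69, -0.18 and -0.27 in normal peripheral areas. Its lowest central array was just above its highest peripheral one, and the difference was 0.93 (SE 0.32, limma adjusted p = 0.382), or 0.45 without normal peripheral 1. A second Ndufa1 probe gave 1.08 with normal peripheral 1 included, and its difference without that array was not computed.

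In dissected thyroids, central minus peripheral, the 79 genes had a median difference of -0.04, against -0.002 over all genes tested, with 30 genes above 0 and 49 below. By complex it was -0.05 for complex I, -0.07 for complex II, -0.02 for complex III, -0.04 for complex IV and -0.03 for complex V. At an unadjusted p under 0.05, 1 of 79 genes passed, against 7.42% of all genes, and leaving out 1 array at a time the count was at most 4, without normal peripheral 1, and 3 without normal peripheral 3 or dissected central 3. Those 4 genes stood against 8% of all genes. Without dissected central 2 the count was 1, against 8.71% of all genes, and the median difference was -0.05. In the arrays of scan day 1 the median difference was -0.02, and in those of scan day 2 it was -0.04. No gene had groups that did not overlap (0 of 79, against 1.66% of all genes). The 95% interval lay within 2-fold for 77 of 79 genes and within 1.5-fold for 54.

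The gene with an unadjusted p under 0.05 was again Ndufa3, with -0.82, -0.47, -0.05, -0.81 and -0.66 in dissected central areas, against -0.17, -0.18, 0.26, -0.51 and 0.35 in dissected peripheral areas. The groups overlapped, and the difference was -0.51 (SE 0.19, limma adjusted p = 0.415). The dissected central arrays are shared with the comparison above in which Ndufa3 also had the smallest p. Its second probe was well above background on 1 array only. Cox6a2 had 0.42, 0.41, 0.98, -0.65 and 0.30 in dissected central areas, against -0.46, -0.26, -0.05, -0.92 and -0.77 in dissected peripheral areas. All but 1 of the central arrays were above all peripheral ones, and the difference was 0.78 (SE 0.39, limma adjusted p = 0.691). Ndufs4, an accessory subunit of complex I, had -0.38, -0.25, -0.17, -0.26 and -0.33 in dissected central areas, against -0.35, -0.03, 0.29, 0.10 and 0.24 in dissected peripheral areas. Its groups overlapped through dissected peripheral 1, and the difference was -0.33 (SE 0.16, limma adjusted p = 0.694).

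Whether surgery changed these genes differently in the 2 areas was tested as a difference of differences, central change minus peripheral change. The median was -0.01 over the 79 genes and -0.02 over all genes tested. At an unadjusted p under 0.05, 10 of 79 genes passed, 3 of them positive, against 5.81% of all genes, and without normal peripheral 1 the count was 2 of 79, Uqcrb and Ndufa3, against 3.24% of all genes, and the median was 0.004. The count was 22 (27.8%) without normal peripheral 3, against 9.36% of all genes, and 6 (7.59%) without dissected central 1, against 4.85%. The median was 0.10 in the arrays of scan day 1, which rests on 1 normal peripheral array, and -0.09 in those of scan day 2. Ndufa3 had a difference of -0.79 (SE 0.28, limma adjusted p = 0.79), or -0.71 without normal peripheral 1. Uqcrc1 had 1.09 (SE 0.41, limma adjusted p = 0.79), or 0.48 without normal peripheral 1. The test is the least precise of the design: its 95% interval had a median half-width of 0.56 and lay within 2-fold for 55 of 79 genes, or for 63 without normal peripheral 1. In the F test among the 4 groups 5 of 79 genes had an unadjusted p under 0.05, against 8.93% of all genes, led by Uqcrb (F = 4.75, limma adjusted p = 0.339), Cox7a1 (F = 4.62, limma adjusted p = 0.353) and Uqcrq (F = 3.60, limma adjusted p = 0.503). Without normal peripheral 1 the 3 F values were 2.72, 3.80 and 1.18. The count was 2 (2.53%) without normal peripheral 1, against 8.84% of all genes, and 18 (22.8%) without normal peripheral 3, against 11%.

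**Figure D4:**
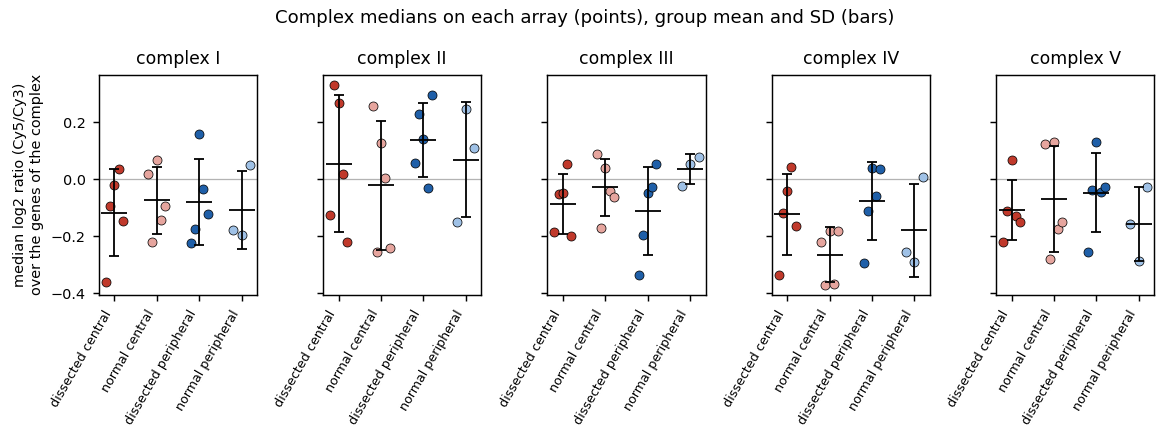
Median log2 ratio of Cy5 to Cy3 over the tested genes of each complex on each array (points), with the group mean and SD (bars). The array medians of the 4 groups overlap in every complex.

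The array medians of the 4 groups overlapped in each complex. For complex I the mean of the array medians was -0.12 ± 0.15 in dissected central (SD, n = 5), -0.07 ± 0.12 in normal central (n = 5), -0.08 ± 0.15 in dissected peripheral (n = 5) and -0.11 ± 0.14 in normal peripheral areas (n = 3). For complex IV it was -0.12 ± 0.14 in dissected central, -0.27 ± 0.10 in normal central, -0.08 ± 0.14 in dissected peripheral and -0.18 ± 0.16 in normal peripheral areas. Across the 18 arrays a gene correlated with the median of the other 78 genes at a median r of 0.40, with a range of -0.19 to 0.80, and 24 of 79 genes were above 0.5. By complex this median r was 0.46 for complex I, 0.31 for complex II, 0.36 for complex III, 0.39 for complex IV and 0.35 for complex V. Without normal peripheral 1 it was 0.46 over the 79 genes, and 0.55, 0.29, 0.48, 0.37 and 0.43 by complex in the same order. Over all 18 arrays the lowest values were those of Cox6a2 (-0.19), Cox7a2l (-0.17), a factor of supercomplex assembly, and Cox8b (-0.16). The arrays share the scan days and Cy3 RNA, so these correlations are descriptions. No such r was computed for other genes, so whether these genes varied together more than others was not tested. Within groups, the SD of a gene between arrays had a median of 0.28 over the 79 genes and 0.32 over all genes tested.

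Cox8b and Cox7a1, isoforms of cytochrome c oxidase found in muscle and brown fat, had the largest negative differences between areas of normal thyroids that did not rest on normal peripheral 1 alone. Cox8b had -0.86, -0.75, -0.48, -2.17 and -0.71 in normal central areas, against 1.03, 0.86 and -0.19 in normal peripheral areas. Every central array was below every peripheral one, and the difference was -1.56 (SE 0.55, limma adjusted p = 0.393). It was -1.33 without normal peripheral 1 and -1.27 without normal central 4, the lowest array. Cox7a1, whose probe is printed above, had -0.32, -0.55, -0.76, -1.34 and -0.51 in normal central areas, against 0.27, 0.35 and 0.04 in normal peripheral areas. These groups were apart as well, and the difference was -0.91 (SE 0.28, limma adjusted p = 0.291), or -0.89 without normal peripheral 1 and -0.75 without normal central 4.

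In dissected thyroids the same isoforms did not separate the areas. Cox8b had -0.10, 0.42, -1.27, -0.24 and -1.47 in dissected central areas, against -1.28, 1.21, -0.82, -0.93 and 0.52 in dissected peripheral areas. Cox7a1 had -0.74, -0.24, 0.03, 0.07 and -0.70 in dissected central areas, against -0.21, 0.50, 0.17, -0.75 and 0.35 in dissected peripheral areas. Both genes overlapped widely, with differences of -0.27 (SE 0.48, limma adjusted p = 0.961) for Cox8b and of -0.33 (SE 0.24, limma adjusted p = 0.869) for Cox7a1. Without dissected central 2 the Cox8b difference was -0.51. After surgery minus normal, Cox8b differed by 0.46 in the central and -0.83 in the peripheral area, and Cox7a1 by 0.38 and -0.21. Without normal peripheral 1 the peripheral differences were -0.60 and -0.18, and without dissected central 2 the central difference of Cox8b was 0.23. The tests of whether those changes differed between the areas gave 1.29 (SE 0.73, limma adjusted p = 0.79) for Cox8b and 0.59 (SE 0.37, limma adjusted p = 0.79) for Cox7a1, or 1.06 and 0.56 without normal peripheral 1.

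The widely expressed counterparts had smaller differences. Between the areas of normal thyroids, central minus peripheral, the difference was 0.08 for Cox8a, -0.14 for Cox7a2 and -0.17 for Cox6a1, and the muscle isoform Cox6a2 had -0.32, which was 0.50 without normal peripheral 1. Cox6b1 had -0.11, Cox6b2 -0.09 and Cox7a2l -0.08. Without that array Cox8a had -0.18, opposite in sign, and the other 5 had -0.21 to -0.01. None passed the test, with limma adjusted p-values of 0.869 to 0.975 for these 7 genes. Cox7a2l had the widest spread of the isoforms after Cox8b and Cox6a2 in this comparison, with an SE of 0.39.

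Fat markers were set beside these isoforms. Of 8 fat markers 7 were measured, and none passed the test between groups. Their mean log2 ratio per array was -1.10 to 0.21 in normal central areas and -0.31 to 0.68 in normal peripheral areas, and -0.46 to 0.18 in dissected central areas and -1.49 to 1.07 in dissected peripheral areas. Ucp1, the defining gene of brown fat, had -0.40, -0.59, -0.89, -0.98 and -0.31 in normal central areas, against 0.37, 0.97 and 0.21 in normal peripheral areas. It separated the areas of normal thyroids as Cox8b did, with a difference of -1.15 (SE 0.68, limma adjusted p = 0.661), or -1.23 without normal peripheral 1. Ucp1 was the only measured fat marker to do so, while 4.86% of all genes did. Cidea, Adipoq, Fabp4, Plin1, Cfd and Elovl3 overlapped between those areas. Fabp4, for example, had its lowest value of these arrays, -1.24, on normal peripheral 1. In dissected thyroids Ucp1 had -0.65, 0.61, -1.17, 0.09 and -2.08 in central areas, against -2.12, 1.47, -1.52, -0.49 and 0.98 in peripheral areas, which overlapped. The part of fat in the isoform values was not tested.

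**Figure D5:**
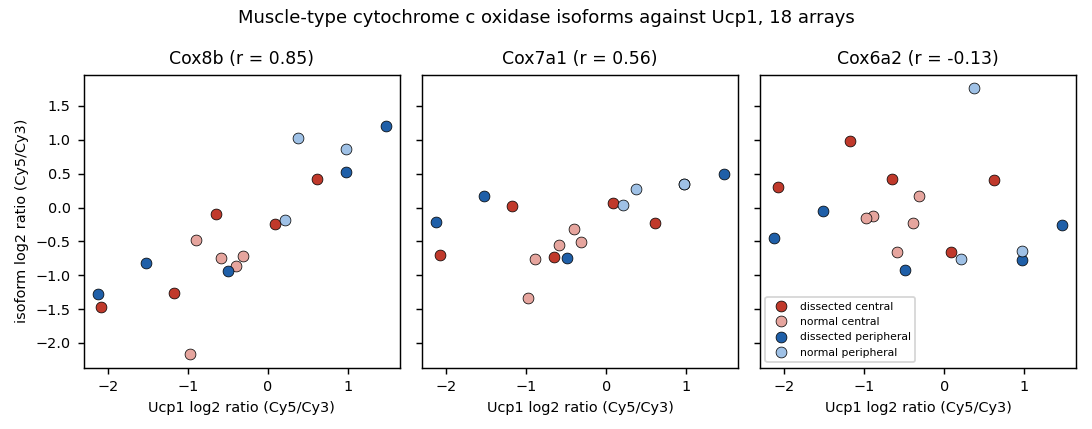
Log2 ratio of Cox8b, Cox7a1 and Cox6a2 (vertical axes) against that of Ucp1 (horizontal axis) on the 18 arrays, coloured by group; r is Pearson's correlation. Cox8b lies along a line with Ucp1 (r = 0.85), Cox7a1 less closely (r = 0.56) and Cox6a2 not (r = -0.13).

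The relation was computed over the 18 arrays for 3 isoforms. Each was set against Ucp1, the mean of the fat markers and the mean of 9 measured skeletal muscle markers of 13 listed. This made 9 relations with p-values from 100000 permutations, two-sided and adjusted over the 9 by Benjamini-Hochberg. All 18 arrays were permuted together, without regard to group, slide or scan day, and areas may share a mouse. Differences between groups, slides and days therefore count in these p-values, which do not measure a relation within groups. The relations were also chosen after values had stood out in these same arrays. The adjustment over the 9 does not cover that choice, so the p-values are descriptions. Cox8b correlated with Ucp1 at r = 0.85 (permutation p = 1e-05, the smallest they can give, adjusted p = 9e-05) and rho = 0.86 (permutation p = 1e-05, adjusted p = 9e-05). Leaving out dissected peripheral 1 and dissected peripheral 2, the arrays farthest from the median of Ucp1, gave r = 0.81, and r was 0.57 on the 7 arrays of scan day 1 and 0.91 on the 11 of scan day 2. From Cy5 alone r was 0.84. Cox7a1 correlated with Ucp1 at r = 0.56 (permutation p = 0.016, adjusted p = 0.049) and rho = 0.59 (permutation p = 0.012, adjusted p = 0.036). It gave r = 0.55 without those 2 arrays, but 0.15 on scan day 1 against 0.75 on scan day 2. An r from 7 arrays is imprecise, and whether the days differed was not tested.

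Cox6a2, the heart and skeletal muscle isoform, correlated with Ucp1 at r = -0.13 (permutation p = 0.62, adjusted p = 0.69) and rho = -0.28 (permutation p = 0.27, adjusted p = 0.40), with r = -0.69 on scan day 1 and -0.04 on scan day 2. Against the mean of the fat markers, Cox8b had r = 0.74 (permutation p = 0.00048, adjusted p = 0.0022) and rho = 0.65 (permutation p = 0.0049, adjusted p = 0.022), with 0.65 after leaving out the same 2 arrays, 0.68 on scan day 1 and 0.76 on scan day 2. Cox7a1 had r = 0.52 (permutation p = 0.027, adjusted p = 0.061) and rho = 0.50 (permutation p = 0.037, adjusted p = 0.083) against that mean, with r = 0.23 on scan day 1 and 0.69 on scan day 2. Against the mean of the muscle markers, r was -0.13 for Cox8b, -0.08 for Cox7a1 and 0.33 for Cox6a2, with permutation p-values of 0.59, 0.76 and 0.19. On scan day 1 these r were -0.84, -0.23 and 0.54, and on scan day 2 they were 0.12, 0.02 and 0.26. The correlation varied by fat marker: Cox8b correlated at 0.73 with Adipoq, at 0.72 with Cidea, at 0.55 with Plin1, at 0.51 with Fabp4, at 0.33 with Cfd and at 0.04 with Elovl3. The pairs were looked at because they had stood out in these same arrays, so the p-values are not independent of that choice.

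Other mitochondrial and energy genes were set beside the subunits. No gene was called in any comparison among 39 measured assembly factors of 42 listed, 20 of 25 electron and adenine nucleotide carriers, 17 of 17 genes of the TCA cycle, which feeds NADH and succinate to the chain, 14 of 16 glycolytic genes, 14 of 18 regulators of mitochondrial biogenesis and 76 of 78 mitochondrial ribosomal proteins. For dissected minus normal in the central area their median differences were -0.03, -0.01, 0.06, 0.03, 0.01 and -0.06 in that order, against -0.01 over all genes. In the peripheral area they were -0.02, 0.14, 0.20, 0.12, -0.15 and 0.06, against 0.01 over all genes. The TCA cycle genes had the most one-sided signs there, 14 of 17 above 0, with 1 of 17 at an unadjusted p under 0.05 and that one below 0. Their mean log2 ratio was -0.36 on normal peripheral 1, but 0.02 and 0.04 on normal peripheral 2 and 3, against -0.12 to 0.23 in dissected peripheral areas. For the carriers it was -0.32, -0.11 and -0.06 on those 3 normal arrays, against -0.15 to 0.05. The peripheral medians of these lists were not computed without normal peripheral 1.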

How the data were processed

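Gene expression was measured on 18 two-colour Agilent arrays. Per the file headers, Agilent Feature Extraction 9.5.1.1 made the deposited files, with spot and background intensity in both channels, processed intensity, a log10 ratio of Cy5 over Cy3 and flags per spot. The submitters' processing notes give 8.5.1.1 instead. The authors also deposited a set of linear ratios, whose scale (linear) and direction (Cy5 over Cy3) were read from its correlation of 0.995 to 1.00 with the scanner ratios after centring each probe; column medians were 0.871 to 1.06, and what its values were centred on is not given in the sources used here. It served as an alternative.

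Intensities were corrected with normexp (offset 50) and normalized by loess within each array, control spots at weight 0 and non-uniform spots left out (which removed Atp5j on dissected peripheral 4). Probes well above background in Cy5 on at least 3 arrays were kept (19080 of 41174), and the brightest stood for its gene (14663 genes). A model of 4 group means was fitted with limma 3.58.1 in R 4.3.3, with eBayes and Benjamini-Hochberg adjustment over all genes, and was tested on simulated data. Sequences and figures used Python with pandas and matplotlib. Genes named with values were taken from those of the 3 smallest p-values in each comparison, subunits listed as core and tissue isoforms. The planned list also held those with the highest and lowest ratio of each complex. Not all of the list is given with values. The core subunits Ndufv1, Sdhb, Uqcrfs1, Cox5a and Atp5a1 are left out. So are Atp5g2, Ndufa12, Ndufb5 and Sdhd, each highest or lowest of its complex. The list called core holds nucleus-encoded subunits only. Ndufa2, Cox5b and the reference tissue genes were named after their values were seen. The members and lists were chosen with earlier results of these data known. The number of arrays limits the precision.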

Additional observations from a re-analysis of the deposited data

Results flagged for a closer look

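Within groups of 5 arrays, 6 of 120 groups examined held 1 array whose gap to its nearest neighbour was over Dixon's 95% value, which chance gives in about 1 group in 20. Cox8b was -2.17 on normal central 4, against -0.86 to -0.48 on the other normal central arrays. Uqcrc1 was -0.041 on the same array, against -0.40 to -0.30. On dissected central 5, Cox4nb was -0.47, against 0.00 to 0.15 on the other dissected central arrays, and Sdhc, a membrane anchor of complex II, was 0.47, against -0.22 to -0.04. Ndufb3 was -0.77 on dissected central 1, against -0.22 to -0.05. Cox6b2 was -0.59 on dissected peripheral 1, against -0.16 to -0.04 on the other dissected peripheral arrays.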

How the results depend on the processing

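Every setting tried, 33 in all, called 0 of the tested respiratory chain genes in every comparison it could fit, with limma. They changed the background correction, dye normalization, use of Cy3, source of values, filter, choice of probe, arrays fitted, slide or scan day, or left out 1 array in turn; the dye normalization between arrays (Aquantile) left every ratio and count as it was, so it could not alter a call, and leaving out the 4 arrays with fewest probes above background was chosen after seeing the data. The median over the genes stayed within the pooled SD of 0.14 between arrays, except that the central minus the peripheral change after surgery was -0.16 in the authors' deposited table, against -0.01, and the cause was not tested. Leaving out 1 array in turn, the median ran from -0.05 to 0.05 for dissected minus normal in the central area, 0.02 to 0.09 in the peripheral area, -0.03 to 0.06 and -0.09 to 0.03 for central minus peripheral in normal and dissected thyroids, and -0.10 to 0.06 for the central minus the peripheral change. Of other values, 19 complex medians and 23 group means moved by more than the spread between arrays, and 801 and 3305 did not. Same-numbered arrays correlated at -0.07 to 0.29 in their deviations from group means (24 pairs, median 0.07, against -0.01 for other pairs), and 13 of 18 arrays correlated best with one of their own number. Per the file headers 17 of 18 arrays shared a slide with their number, the other being normal peripheral 3. Since neither the labels nor every pair's correlation gave a pairing, the number was not taken as one. With the replicate block, 0 of 79 genes were called, and 15 and 14 had an unadjusted p under 0.05 for the peripheral and normal thyroid comparisons, against 10 and 9 without it; over all genes these shares were 12.3% and 11.8%, against 8.34% and 8.59%. With the slide as a block, 0 of 79 were called, and 13 and 9 had an unadjusted p under 0.05, against 10.2% and 10.4% of all genes.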
